A study of Mus musculus with 20 samples.

Results

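Braveheart is a mouse long non-coding RNA known for its role in the commitment of mesoderm to the heart lineage, and the comparison described here covers the libraries taken before that stage, at day 0 (embryonic stem cells) and day 3 of differentiation. The 4 hairpin libraries, hairpin A and hairpin B against Braveheart at days 0 and 3, were compared with the 2 scrambled hairpin libraries of the same days, 6 of the 20 libraries of the series. All 6 came from E14, an embryonic stem cell line of 129/Ola mice, transduced with lentiviral pLKO.1 vectors that express a short hairpin RNA and selected with puromycin, so the scrambled cells carried a vector and selection too. Hairpin A, hairpin B and scrambled cells each had 1 library a day, and hairpins A and B served as the 2 replicates of depletion. Whether the 2 days of a hairpin came from the same culture is not stated. The scrambled culture had no replicate within a day, and p-values measure only the spread among these few libraries. The labels describe an embryoid body protocol and a directed heart muscle protocol for these samples, and the sources used here do not say which one gave the day 3 cells, nor whether the selected cells were pools or clones. Braveheart's own level was not analysed here, so the depth of the depletion is not shown by these values.

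Embryonic stem cells in culture are held by Pou5f1, Sox2 and Nanog. On differentiation they lose naive factors such as Klf4, pass through an epiblast-like state marked by Fgf5 and Dnmt3b, and then turn on primitive streak genes such as T and Eomes, from which mesoderm and later the heart progenitors arise. The libraries held the marks of these stages. Pou5f1 stood at 689, 682 and 604 FPKM in hairpin A, hairpin B and scrambled cells at day 0, and at 689, 705 and 788 FPKM at day 3 (FPKM is fragments per kilobase of transcript and per 1000000 mapped reads). Fgf5 stood at 3.1, 10.8 and 5.38 FPKM at day 0 and at 32.7, 46.4 and 51.5 FPKM at day 3 in the same order. Markers of heart mesoderm were near the detection limit at both days. Mesp1, an early mesoderm factor of the heart lineage, did not exceed 0.383 FPKM in any of the 6 libraries, and only 4 of the 17 genes listed for heart mesoderm and progenitors passed the filter of 1 FPKM in 2 libraries. Genes of the fibroblast and feeder list were present at day 0 in all 3 cultures, with Col1a2 at 15.4 and 15.6 FPKM in hairpins A and B and 12.6 FPKM in scrambled cells. Of the 18 fibroblast and feeder genes tested, 12 were higher than scrambled in both hairpins at day 0, where 32.5% of all loci were, and the list summed to 245.4 and 310.3 FPKM in hairpins A and B and 203.2 FPKM in scrambled cells. Their part in the differences below was not tested. At day 3 Col1a2 was at 0.507 and 0.568 FPKM in hairpins A and B and 0.491 FPKM in scrambled cells. In bulk RNA, fewer cells of a kind and less RNA per cell cannot be told apart.

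Sequencing depth, read from the smallest steps of the FPKM values, was between 7840000 and 10060000 reads, and hairpin A at day 0 was the shallowest. At these depths 3 reads on a transcript of 1 kb equal between 0.298 and 0.383 FPKM. Median levels over the 12852 loci tested lay between 12.73 and 12.98 FPKM in the 6 libraries. The cultures were otherwise not equally close. At day 0 hairpin A and scrambled cells were alike (Pearson correlation of log2(FPKM + 1) across loci 0.9904), while hairpin B correlated with scrambled cells at 0.9734 and with hairpin A at 0.9739. At day 3 the correlation was 0.9894 between hairpin A and scrambled cells, 0.9931 between hairpin B and scrambled cells, and 0.9864 between the hairpins. Loci are not independent replicates, and these values only describe the libraries.

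The first question was whether depletion of Braveheart altered the transcriptome before mesoderm formed. Over both days together no locus passed limma's test with Benjamini-Hochberg adjustment (0 of 12852, 0.0%), with 306 loci at an unadjusted p under 0.05. The smallest adjusted p was 0.128, for Snhg9. At day 3 alone no locus passed (0.0%, 74 at an unadjusted p under 0.05). At day 0 alone 1 locus passed (0.00778%), and the difference between the effects of the 2 days also had 1 call (0.00778%). With overlapping loci left out, or with only the loci whose deposited quantification status was OK in all 6 libraries, both of these counts were 0. They were also 0 with all 12 libraries of the time course in the fit, and without the filter on low values. With loci under 300 bp kept there were 8 calls at day 0 and 3 for the difference, and with the hairpin culture as a replicate block the difference had 7. The main test of the difference did not pair the days of a hairpin. In the tests by day and of the difference, the spread came only from hairpins A and B (2 residual degrees of freedom). The scrambled library was assumed to vary like them. The fit over both days had 3 residual degrees of freedom, with a single scrambled library a day, and a p that misses the threshold does not show that values did not differ.

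Overlapping loci were frequent among the largest shared differences. Of the 12852 loci, 15.0% overlapped another locus of the table. Among loci past 2-fold in both hairpins at day 0, 7 were higher (0.0545%) and 12 lower (0.0934%), and 12 of these 19 (63.2%) overlapped another locus. At day 3, 8 were higher (0.0622%) and 10 lower (0.0778%), and 15 of these 18 (83.3%) overlapped another locus. Bbip1, a subunit of the ciliary BBSome, lies between Pdcd4 and Shoc2 and overlaps both. It had 6.28 and 7.21 FPKM in hairpins A and B and 32.1 FPKM in scrambled cells at day 0, but 7.42 and 7.56 FPKM in hairpins A and B and 8.38 FPKM in scrambled cells at day 3. Igfbp7, a secreted binding protein for insulin-like growth factors, overlaps Polr2b, and its deposited status was FAIL in at least 1 of the 6 libraries. It had 0.917 and 0.808 FPKM in hairpins A and B at day 3, against 13.6 FPKM in scrambled cells (limma adjusted p = 0.104), but 15.1 and 11.5 FPKM in hairpins A and B and 10.2 FPKM in scrambled cells at day 0. Fgf18, a fibroblast growth factor gene that overlaps no other locus, had 1.28 and 1.24 FPKM in hairpins A and B at day 3 and 4.26 FPKM in scrambled cells, where day 0 gave 3.07 and 6.19 FPKM in hairpins A and B and 4.28 FPKM in scrambled cells. In each of these 3 loci the hairpins stood together and apart from the scrambled library on 1 day only. Past 2-fold in both hairpins, 7 loci at day 0 and 3 at day 3 overlapped no other locus, and the part of overlap in the rest was not tested. A status of FAIL in at least 1 library was listed for 3 of the 19 loci at day 0 (15.79%) and 5 of the 18 at day 3 (27.78%), against 0.71% of all loci.

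**Figure D1:**
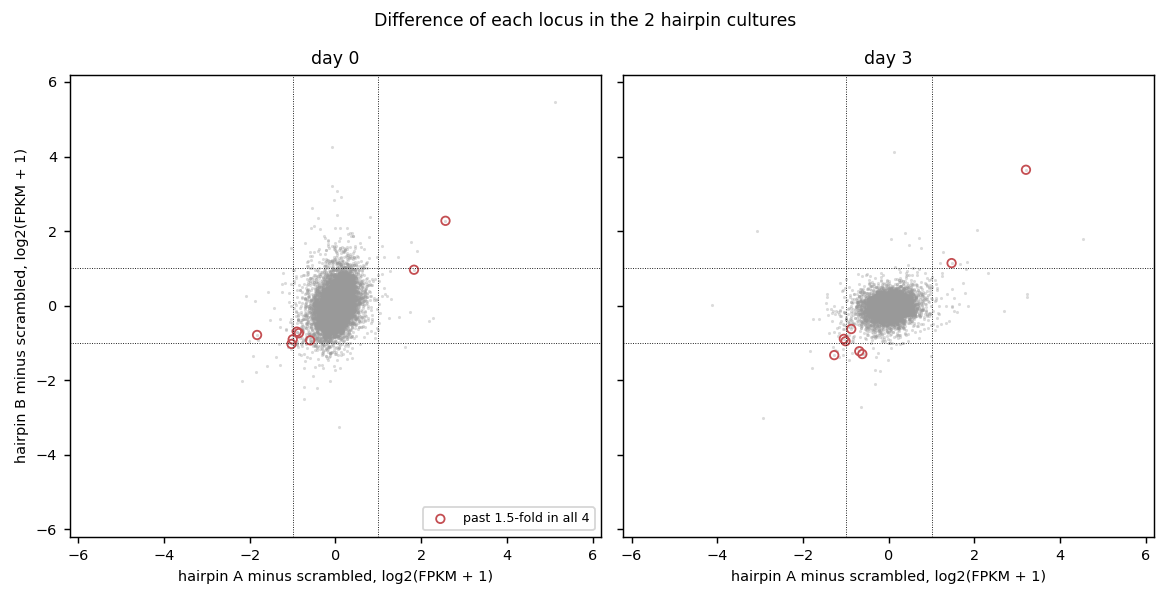
Each grey point is 1 of the 12852 loci, with the difference of hairpin A (x axis) and hairpin B (y axis) from the scrambled library of the same day, in log2(FPKM + 1), at day 0 (left) and day 3 (right). Dotted lines mark 2-fold, and red rings the 8 loci past 1.5-fold in one direction in all 4 comparisons. Both axes subtract the same scrambled library. The cloud is wider along hairpin B at day 0.

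A difference that held in both hairpins on both days was rare. Past 1.5-fold in all 4 matched comparisons there were 2 loci higher in the hairpins (0.0156%) and 6 lower (0.0467%). These 8 differences passed no adjusted test over both days, and they are given as descriptions. Of the 8, Snhg9 passed it with a pseudocount of 0.1 FPKM or in a model of 4 groups. None of the 8 belongs to the pluripotency, streak, heart mesoderm or cardiomyocyte lists. Those lists hold only 22, 9, 4 and 10 of the 12852 loci tested, so their absence among 8 loci says little about them. Since the 2 hairpins of a day share 1 scrambled library, a low or high value in that library enters both comparisons.

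Snhg9, a host gene of small nucleolar RNAs (mm9 chr17:24856477-24856910), was listed at 4.93 and 3.84 FPKM in hairpins A and B at day 0 and at 0 FPKM in scrambled cells. At day 3 it was listed at 8.21 and 11.5 FPKM in hairpins A and B and again at 0 FPKM in scrambled cells. The locus holds the small nucleolar RNA Snora78, and the deposited status of Snhg9 was OK in all 6 libraries. AA467197 (chr2:122463622-122466812), which overlaps the microRNA locus Mir147, had 3.45 and 1.43 FPKM in hairpins A and B and 0.248 FPKM in scrambled cells at day 0. At day 3 it had 3.12 and 2.28 FPKM in hairpins A and B and 0.491 FPKM in scrambled cells. Both hairpins lay above scrambled cells on both days, at low levels in all 6 libraries.

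Tfpi, which encodes tissue factor pathway inhibitor, an anticoagulant protein (chr2:84273016-84316932), had 7.64 and 8.34 FPKM in hairpins A and B and 14.6 FPKM in scrambled cells at day 0, and 2.02 and 2.12 FPKM in hairpins A and B and 5.07 FPKM in scrambled cells at day 3. Its log2 difference over both days was -0.89 (SE 0.14, limma adjusted p = 0.999). The hairpins agreed closely with each other on each day, and Tfpi was lower at day 3 than at day 0 in all 3 cultures. Pnma5, an X-linked gene of the paraneoplastic Ma antigen family (chrX:70279326-70282442), had 5.72 and 12.8 FPKM in hairpins A and B and 22.9 FPKM in scrambled cells at day 0, and 3.72 and 3.53 FPKM in hairpins A and B and 10.4 FPKM in scrambled cells at day 3. Here the hairpins differed by over 2-fold from each other at day 0.

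1110020G09Rik (chr15:9001008-9040244) was the most abundant of the 8, with 25.9 and 25.8 FPKM in hairpins A and B and 53.7 FPKM in scrambled cells at day 0, and 23.1 and 27.5 FPKM in hairpins A and B and 43.2 FPKM in scrambled cells at day 3. It overlaps no other locus, and its log2 difference over both days was -0.89 (SE 0.13, limma adjusted p = 0.999). Fam98c (chr7:29937529-29941229), which overlaps Rasgrp4, had 4.79 and 5.64 FPKM in hairpins A and B and 9.8 FPKM in scrambled cells at day 0, and 6.35 and 7.16 FPKM in hairpins A and B and 14.2 FPKM in scrambled cells at day 3. 1700025K23Rik and 1700001C19Rik were low in every library, between 0.887 and 4.12 FPKM in the hairpins and between 3.41 and 6.86 FPKM in scrambled cells. Just outside the 1.5-fold limit stood Rfk, riboflavin kinase, chosen after its values were seen, with 30.6 and 30.6 FPKM in hairpins A and B and 20.2 FPKM in scrambled cells at day 0, and 28.2 and 27.0 FPKM in hairpins A and B and 17.7 FPKM in scrambled cells at day 3.

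**Figure D2:**
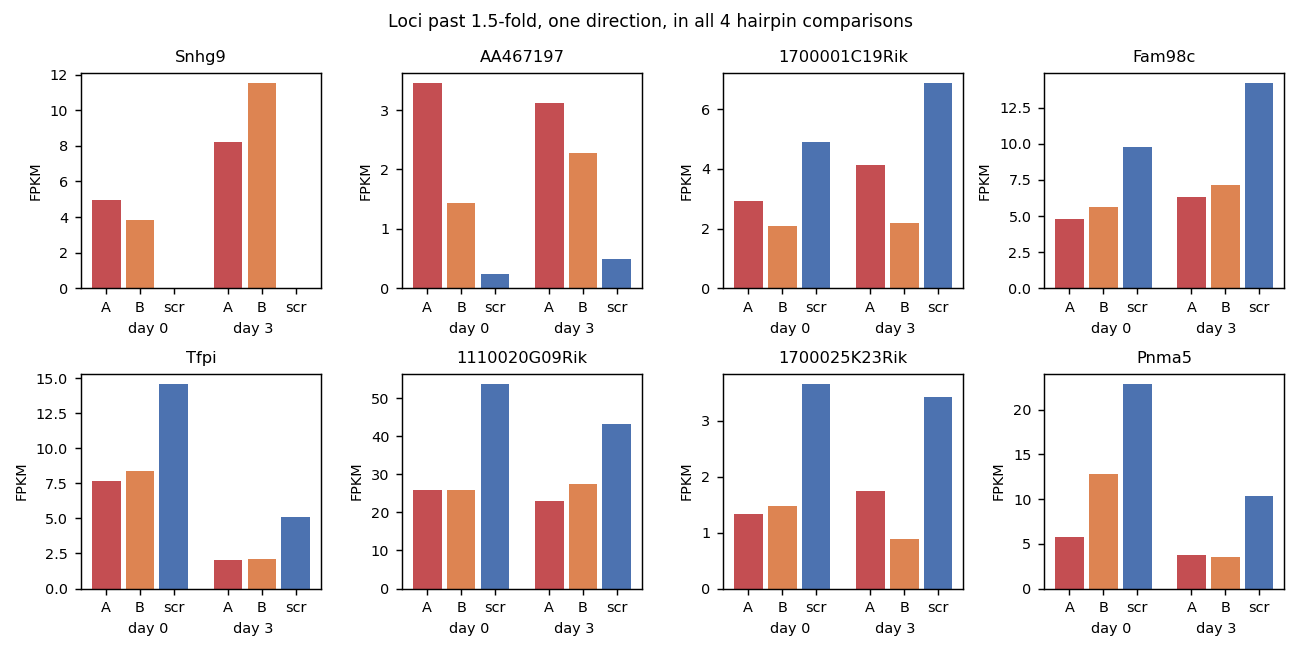
Bars give the FPKM of each of the 8 loci in hairpin A (A), hairpin B (B) and scrambled (scr) cells at day 0 (left 3 bars) and day 3 (right 3 bars), 1 library a bar, so there are no error bars. Snhg9 was listed at 0 FPKM in both scrambled libraries, and Tfpi had 7.64 and 8.34 FPKM in the hairpins at day 0 beside 14.6 FPKM in scrambled cells.

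The untreated E14 stem cells of the same series were quantified in another way, as TPM (transcripts per 1000000), in a table normalized apart, so no test was made across the tables. Snhg9 had 0.515 and 0.382 TPM in the 2 untreated E14 libraries, AA467197 had 1.16 and 1.09 TPM, Tfpi 17.9 and 23.1 TPM, Pnma5 58.1 and 64.5 TPM, and 1110020G09Rik 78.8 and 88.4 TPM. Fam98c had 28.1 and 17.1 TPM, and 1700025K23Rik 3.93 and 3.2 TPM. 1700001C19Rik, lower in the hairpins than in scrambled cells, was low in untreated cells too, at 0.98 and 0.566 TPM.

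The next comparison asked whether whole groups of genes stood to one side. Across all loci tested, 9.81% were higher and 10.1% lower than scrambled in all 4 comparisons at any size, and the median log2 difference was 0.01 in hairpin A at day 0, 0.00 in hairpin B at day 0, 0.01 in hairpin A at day 3 and -0.01 in hairpin B at day 3. None of the 32 gene lists had a member that passed the adjusted test or that lay past 1.5-fold in all 4 comparisons. Over all 12852 loci each test had 0 or 1 call, and 8 loci lay past 1.5-fold in all 4. The lists are therefore described by their counts and medians.

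Among the factors that hold pluripotency, the hairpins differed from each other at day 0. Of the 22 genes, 1 was higher and 1 lower in all 4 comparisons, against 9.81% and 10.1% of all loci. In hairpin B at day 0, 6 were past 1.5-fold higher (8.14% of all loci were) and 2 lower (6.57%), with a median log2 difference of 0.29, while in hairpin A at day 0 none was higher and 1 lower, with a median of 0.02. At day 3, 12 of the 22 were lower in both hairpins (27.5% of all loci were), and the medians were -0.06 (A) and -0.26 (B). Sox2 had 432 and 426 FPKM in hairpins A and B and 428 FPKM in scrambled cells at day 0, and 330 and 250 FPKM in hairpins A and B and 279 FPKM in scrambled cells at day 3. Nanog had 205 and 175 FPKM in hairpins A and B and 201 FPKM in scrambled cells at day 0, and 82.4 and 96.1 FPKM in hairpins A and B and 108 FPKM in scrambled cells at day 3. The largest effect over both days in the list was that of Dppa3, a maternal factor also marking naive cells and germ cells. Dppa3 had 10.1 and 21.5 FPKM in hairpins A and B and 17.1 FPKM in scrambled cells at day 0, and 9.12 and 8.63 FPKM in hairpins A and B and 17.1 FPKM in scrambled cells at day 3, so only hairpin B at day 0 was not below scrambled.

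The core subunits of polycomb repressive complex 2, which places the repressive H3K27 methyl mark and which Braveheart is known to bind through SUZ12, stayed within 1.5-fold of scrambled cells in all 4 comparisons. Suz12 had 143 and 111 FPKM in hairpins A and B and 154 FPKM in scrambled cells at day 0, and 90.4 and 87.4 FPKM in hairpins A and B and 86.0 FPKM in scrambled cells at day 3. Ezh2, the methyltransferase, had 94.8 and 70.4 FPKM in hairpins A and B and 93.2 FPKM in scrambled cells at day 0, and 80.2 and 79.1 FPKM in hairpins A and B and 77.6 FPKM in scrambled cells at day 3. Eed, which binds the mark, had 83.5 and 110 FPKM in hairpins A and B and 87.5 FPKM in scrambled cells at day 0. At day 3 Eed lay between 58.2 and 59.5 FPKM in all 3 cultures. Of the 19 polycomb genes, 5 were lower and 1 higher in all 4 comparisons, against 10.1% and 9.81% of all loci. Mtf2, an accessory subunit that brings the complex to CpG islands, had 168 and 132 FPKM in hairpins A and B and 223 FPKM in scrambled cells at day 0, and 91.2 and 90.0 FPKM in hairpins A and B and 105 FPKM in scrambled cells at day 3.

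Processing of hairpins loads the machinery of RNA interference, and double-stranded RNA can raise an interferon response. The medians of both lists lay near 0. The scrambled cells expressed a hairpin as well, so a response common to all 3 cultures would not appear in these differences. The median log2 difference of the 14 tested RNA interference genes lay between -0.13 and 0.08 in the 4 comparisons, and no member was past 1.5-fold in any of them. Dicer1, the enzyme that cuts hairpin precursors, had 28.7 and 23.6 FPKM in hairpins A and B and 30.6 FPKM in scrambled cells at day 0, and 25.0 and 29.8 FPKM in hairpins A and B and 27.9 FPKM in scrambled cells at day 3. Eif2c2 (Argonaute 2), the slicing enzyme, had 38.1 and 30.8 FPKM in hairpins A and B and 40.0 FPKM in scrambled cells at day 0, and 25.6 and 37.3 FPKM in hairpins A and B and 27.9 FPKM in scrambled cells at day 3. For the 15 tested interferon genes the medians lay between -0.05 and 0.14, with 1 gene higher and 0 lower in all 4 (9.81% and 10.1% of all loci were). In hairpin B at day 0, 5 of the 15 were past 1.5-fold higher (8.14% of all loci were) and 3 lower (6.57%), against 0 higher and 1 lower in hairpin A. Cxcl10, an interferon-induced chemokine, had 1.63 and 6.81 FPKM in hairpins A and B and 1.03 FPKM in scrambled cells at day 0, and 6.89 and 15.9 FPKM in hairpins A and B and 10.8 FPKM in scrambled cells at day 3. Ifit1, an interferon-induced RNA-binding protein, had 2.42 and 1.3 FPKM in hairpins A and B and 3.09 FPKM in scrambled cells at day 0, and was under 0.3 FPKM in all 3 cultures at day 3. Isg15, a ubiquitin-like interferon product, had 9.16 and 16.8 FPKM in hairpins A and B and 8.86 FPKM in scrambled cells at day 0, and 2.11 and 1.34 FPKM in hairpins A and B and 0.849 FPKM in scrambled cells at day 3.

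**Figure D3:**
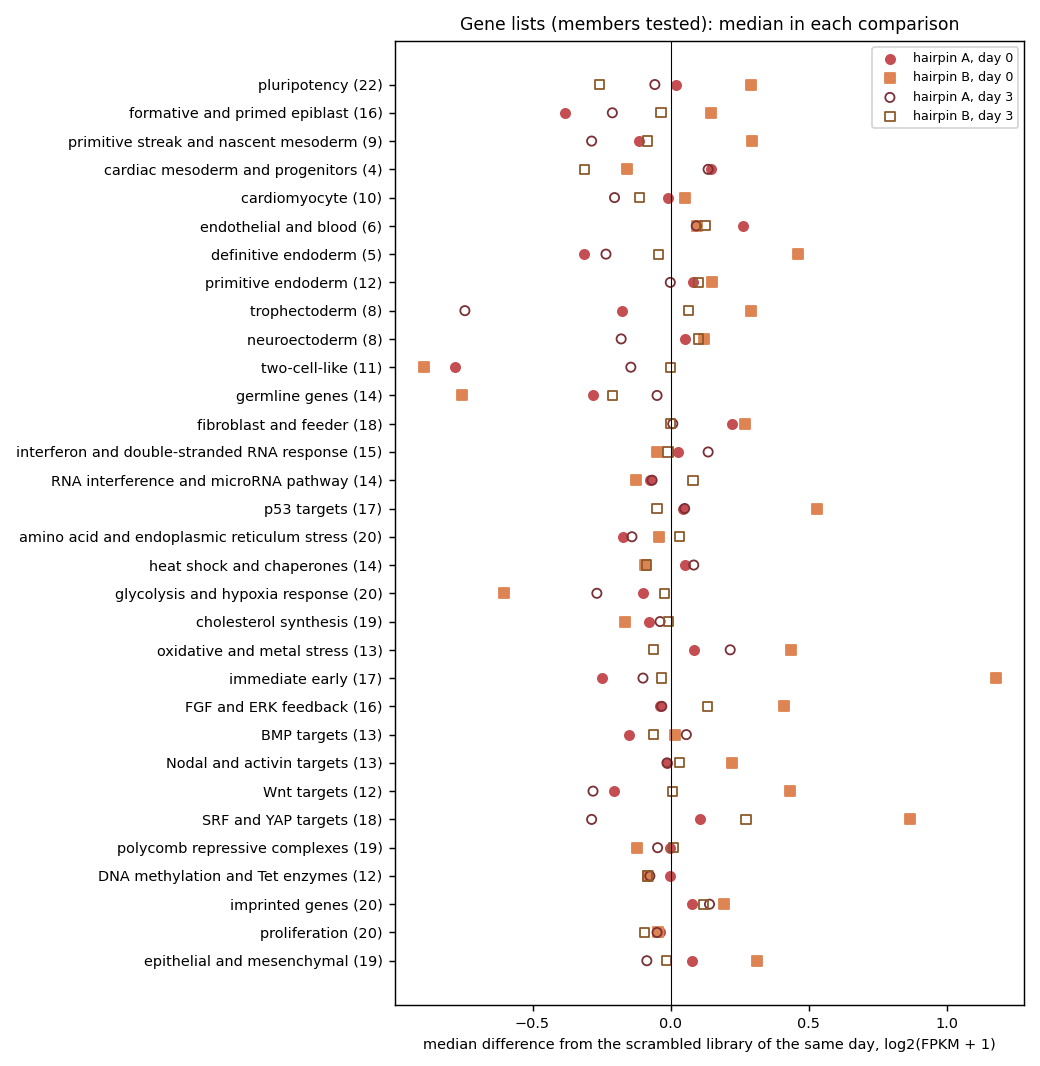
Each row is a gene list with the number of its members tested, and each mark the median log2 difference of its members from the scrambled library of the same day, in log2(FPKM + 1), for hairpin A (circles) and hairpin B (squares) at day 0 (filled) and day 3 (open). Genes of the 2-cell-like state lie near -0.8 in both hairpins at day 0, while immediate early genes lie at 1.18 in hairpin B at day 0 and at -0.25 in hairpin A.

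Genes of the 2-cell-like state lay lower in both hairpins at day 0. A small share of embryonic stem cells passes through this state, in which genes of the cleaving embryo such as the Zscan4 cluster are transcribed. Of 11 tested members, 10 were lower in both hairpins at day 0, where 30.1% of all loci were. Hairpin A had a median log2 difference of -0.78, and hairpin B of -0.89. Zscan4c, a telomere-regulating zinc finger gene, had 22.99 and 19.98 FPKM in hairpins A and B and 40.2 FPKM in scrambled cells at day 0. Tcstv1, another gene of that state, had 19.5 and 20.9 FPKM in hairpins A and B and 43.2 FPKM in scrambled cells. The exception was Eif1a, a translation initiation factor gene also expressed in other cells, with 110 and 163 FPKM in hairpins A and B and 114 FPKM in scrambled cells. Excepting Eif1a, every tested member was below the scrambled library in both hairpins, and the single scrambled library of that day sets the size of this difference.

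At day 3 these genes were at low levels in all 3 cultures. Zscan4c had 1.32 and 1.53 FPKM in hairpins A and B and 1.68 FPKM in scrambled cells, and Tcstv1 had 1.67 and 1.16 FPKM in hairpins A and B and 2.26 FPKM in scrambled cells. The medians at day 3 were -0.14 in hairpin A and 0.00 in hairpin B, with 5 members lower in both hairpins (27.5% of all loci were). In scrambled cells the list lay 3.76 lower on the log2 scale at day 3 than at day 0, by its median.

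These members are not independent measurements. The Zscan4 genes are near-identical copies on chromosome 7, and reads can be split among them. The 100 bases below come from upstream of the annotated starts of 3 copies (RefSeq, GRCm38.p6), and capitals mark the letters TATAAA. They show how alike the copies are upstream. They lie outside the annotated transcripts, so they do not show how reads were split. Over this stretch, lined up without gaps at the offset with most matches, Zscan4d matched Zscan4c at 97 of 100 bases and Zscan4f at 99. They lie at chr7:11005622-11005721, plus strand (Zscan4c), chr7:11166183-11166282, minus strand (Zscan4d) and chr7:11397815-11397914, plus strand (Zscan4f).
Zscan4c: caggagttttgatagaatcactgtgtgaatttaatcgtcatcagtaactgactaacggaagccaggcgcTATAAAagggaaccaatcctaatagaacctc
Zscan4d: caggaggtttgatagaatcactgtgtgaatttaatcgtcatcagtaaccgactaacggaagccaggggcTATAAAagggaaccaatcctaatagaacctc
Zscan4f: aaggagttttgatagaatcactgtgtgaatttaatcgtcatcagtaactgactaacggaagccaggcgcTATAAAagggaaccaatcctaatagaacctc

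The values of the 3 copies moved in step as well. Zscan4d had 16.6 and 13.1 FPKM in hairpins A and B and 29.1 FPKM in scrambled cells at day 0, and Zscan4f had 29.4 and 25.0 FPKM in hairpins A and B and 51.2 FPKM in scrambled cells.

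Germline genes, several of which are held silent by promoter methylation in differentiated cells, lay lower at day 0 too, more so in hairpin B. Of 14 tested, 10 lay under scrambled in both hairpins on that day (30.1% of all loci did) and 5 in all 4 comparisons (10.1%). The day 0 medians were -0.28 for hairpin A and -0.76 for hairpin B. Hormad1, a protein of the meiotic chromosome axis, had 14.7 and 9.73 FPKM in hairpins A and B and 25.2 FPKM in scrambled cells at day 0, and 3.7 and 3.87 FPKM in hairpins A and B and 4.96 FPKM in scrambled cells at day 3. Dazl, an RNA-binding protein of germ cells, had 9.34 and 7.78 FPKM in hairpins A and B and 13.8 FPKM in scrambled cells at day 0, and 3.93 and 3.64 FPKM in hairpins A and B and 4.57 FPKM in scrambled cells at day 3. Mael, a piRNA pathway gene, had 26.5 and 14.8 FPKM in hairpins A and B and 31.1 FPKM in scrambled cells at day 0. At day 3 it had 14.6 and 11.1 FPKM in hairpins A and B and 15.2 FPKM in scrambled cells. For Mael, hairpin A lay closer to scrambled cells than to hairpin B at day 0.

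**Figure D4:**
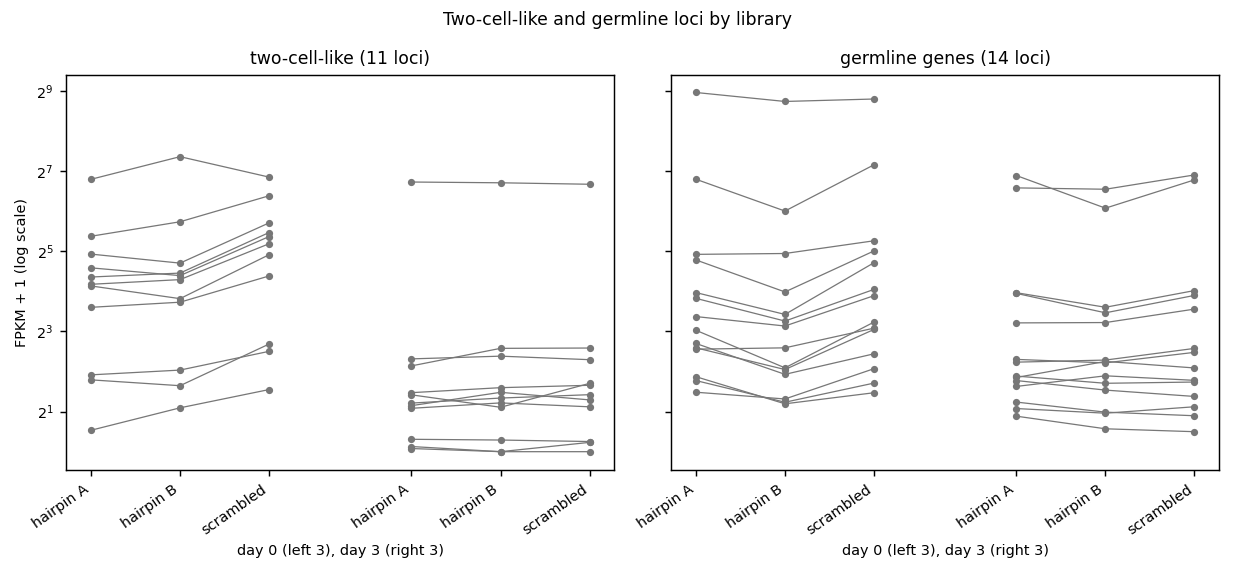
Each line joins the values of 1 locus (FPKM + 1, log scale) in hairpin A, hairpin B and scrambled cells, at day 0 (left 3 points) and day 3 (right 3 points), for the 11 tested 2-cell-like loci (left panel) and 14 germline loci (right panel). At day 0, 10 of each lie lower in both hairpins than in scrambled cells, where 30.1% of all loci do.

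The largest departure from scrambled cells was that of a single library. Past 2-fold, 386 loci (3.0%) differed between hairpin B and scrambled cells at day 0, of which 245 were higher, against 66 loci (0.51%) for hairpin A at day 0. Hairpins A and B differed past 2-fold at 414 loci that day, so hairpin B was about as far from hairpin A as from scrambled cells. At day 3 the order of the hairpins was the reverse, with 107 loci past 2-fold in hairpin A and 49 in hairpin B. Values that rest on hairpin B at day 0 have no replicate, and they are given beside hairpin A each time.

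In hairpin B at day 0, immediate early genes, the transcription factors and regulators that respond first to growth factors or stress, stood highest. Of 17 tested, 15 were past 1.5-fold higher there (8.14% of all loci were) with a median of 1.18, and 0 were in hairpin A at day 0, where the median was -0.25. Fos, a subunit of the AP-1 factor, had 104 and 372 FPKM in hairpins A and B and 164 FPKM in scrambled cells at day 0, and 8.7 and 6.27 FPKM in hairpins A and B and 16.7 FPKM in scrambled cells at day 3. Egr1, a zinc finger factor downstream of ERK, had 160 and 556 FPKM in hairpins A and B and 238 FPKM in scrambled cells at day 0, and 38.0 and 41.8 FPKM in hairpins A and B and 51.5 FPKM in scrambled cells at day 3. Junb, a Jun family partner of Fos, had 33.8 and 238 FPKM in hairpins A and B and 45.4 FPKM in scrambled cells at day 0, and 35.7 and 42.9 FPKM in hairpins A and B and 35.4 FPKM in scrambled cells at day 3. The hairpins stood on opposite sides of scrambled cells at day 0 for all 3 of these genes. Socs3, a feedback inhibitor of cytokine signalling through STAT3 and chosen after its values were seen, had 19.8 and 169.4 FPKM in hairpins A and B and 19.3 FPKM in scrambled cells at day 0.

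Targets of SRF, which switches on actin genes, and of YAP, the effector of the Hippo pathway, also stood high in hairpin B at day 0. Of 18 tested, 15 were past 1.5-fold higher there (8.14% of all loci were) and 0 in hairpin A, although 14 were higher in both hairpins at any size (32.5% of all loci were). At day 3, 5 were past 1.5-fold lower in hairpin A (2.12% of all loci were) and 0 in hairpin B. The medians were 0.11 in hairpin A and 0.87 in hairpin B at day 0, and -0.29 in hairpin A and 0.27 in hairpin B at day 3. Tpm1, the actin-binding tropomyosin, had 124 and 275 FPKM in hairpins A and B and 114 FPKM in scrambled cells at day 0, and 260 and 446 FPKM in hairpins A and B and 337 FPKM in scrambled cells at day 3. Cyr61, a matricellular YAP target, had 47.9 and 116 FPKM in hairpins A and B and 51.1 FPKM in scrambled cells at day 0, and 58.7 and 122 FPKM in hairpins A and B and 98.9 FPKM in scrambled cells at day 3. Actg1, cytoplasmic gamma actin, was higher in all 4 comparisons, with 877 and 1145 FPKM in hairpins A and B and 612 FPKM in scrambled cells at day 0. At day 3 Actg1 had 1287 and 1408 FPKM in hairpins A and B and 1114 FPKM in scrambled cells. Krt8, an epithelial keratin, had 7.42 and 57.1 FPKM in hairpins A and B and 6.74 FPKM in scrambled cells at day 0, and 29.2 and 72.3 FPKM in hairpins A and B and 54.1 FPKM in scrambled cells at day 3.

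SRF binds the CArG box, a motif of a CC pair and a GG pair around 6 A or T letters. In the 250 bases upstream of the annotated start (RefSeq, GRCm38.p6), the box was found for 5 of the 13 SRF and YAP targets with a sequence, for 1 of 13 immediate early genes and for 1.4% of all 27025 genes with one. The motif reads the same on both strands. A match describes the letters and is no evidence of binding. Bases beyond these 250 were not searched, so a gene without a match here may hold the box elsewhere. The SRF and YAP list was drawn up from targets of these factors, so its share is no independent result. The 150 bases upstream of 3 members that hold it are shown, with the boxes in capitals. They are Srf itself (chr17:46556163-46556312, minus strand), Zfp36, an immediate early gene whose protein degrades messenger RNAs (chr7:28379229-28379378, minus strand), and Actg1 (chr11:120348496-120348645, minus strand).
Srf: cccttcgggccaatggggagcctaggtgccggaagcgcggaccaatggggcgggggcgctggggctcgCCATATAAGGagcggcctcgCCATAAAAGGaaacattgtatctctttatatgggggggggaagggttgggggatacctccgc
Zfp36: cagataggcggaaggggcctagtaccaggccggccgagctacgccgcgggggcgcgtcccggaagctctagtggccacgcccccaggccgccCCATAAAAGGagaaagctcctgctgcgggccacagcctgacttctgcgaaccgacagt
Actg1: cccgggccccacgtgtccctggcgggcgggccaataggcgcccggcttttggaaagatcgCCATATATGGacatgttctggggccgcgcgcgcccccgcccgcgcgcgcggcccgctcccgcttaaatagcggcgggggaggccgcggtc

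Srf had 21.6 and 44.7 FPKM in hairpins A and B and 23.7 FPKM in scrambled cells at day 0, and 33.3 and 41.1 FPKM in hairpins A and B and 39.5 FPKM in scrambled cells at day 3. Zfp36 had 20.4 and 114 FPKM in hairpins A and B and 26.5 FPKM in scrambled cells at day 0, and 30.2 and 31.4 FPKM in hairpins A and B and 26.2 FPKM in scrambled cells at day 3. Both genes were chosen for their motif, after their values were seen.

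Genes of glycolysis and of the response to low oxygen lay on the other side. Of 20 tested, 10 were past 1.5-fold lower in hairpin B at day 0 (6.57% of all loci were) and 1 in hairpin A at day 0. At any size 9 were lower in all 4 comparisons (10.1% of all loci were) and 1 was higher (9.81%). The medians were -0.10 in hairpin A and -0.60 in hairpin B at day 0, and -0.27 in hairpin A and -0.02 in hairpin B at day 3. Bnip3, a mitophagy receptor induced in low oxygen, had 141 and 50.8 FPKM in hairpins A and B and 236 FPKM in scrambled cells at day 0, and 64.2 and 72.1 FPKM in hairpins A and B and 84.0 FPKM in scrambled cells at day 3. Pgk1, the glycolytic phosphoglycerate kinase, had 895 and 450 FPKM in hairpins A and B and 1029 FPKM in scrambled cells at day 0, and 574 and 636 FPKM in hairpins A and B and 707 FPKM in scrambled cells at day 3. Slc2a1, the glucose transporter GLUT1, had 291 and 193 FPKM in hairpins A and B and 363 FPKM in scrambled cells at day 0, and 183 and 274 FPKM in hairpins A and B and 316 FPKM in scrambled cells at day 3. Ldha, lactate dehydrogenase A, had 545 and 319 FPKM in hairpins A and B and 614 FPKM in scrambled cells at day 0, and 577 and 755 FPKM in hairpins A and B and 863 FPKM in scrambled cells at day 3. All 4 named genes were lower than scrambled in both hairpins on both days, while the hairpin that lay lower changed between the days.

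The hypoxia-inducible factors bind the letters ACGTG. On either strand these letters occurred in the 250 upstream bases of 10 of 19 genes of the list with a sequence, against 16.57% of all genes. The list was drawn up with genes of the low oxygen response, so this share is no independent result. A match is no evidence of binding. The 150 bases upstream of Bnip3 (chr7:138909507-138909656, minus strand) and Pgk1 (chrX:106186950-106187099, plus strand) are shown with the letters in capitals on either strand, and in Bnip3 a match on each strand overlaps the other.
Bnip3: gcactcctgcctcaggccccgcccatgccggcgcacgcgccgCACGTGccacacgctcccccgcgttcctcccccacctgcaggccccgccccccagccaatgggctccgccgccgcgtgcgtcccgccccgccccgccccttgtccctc
Pgk1: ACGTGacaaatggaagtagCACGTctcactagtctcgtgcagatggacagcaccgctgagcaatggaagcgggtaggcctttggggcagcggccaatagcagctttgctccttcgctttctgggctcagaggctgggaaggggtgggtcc

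**Figure D5:**
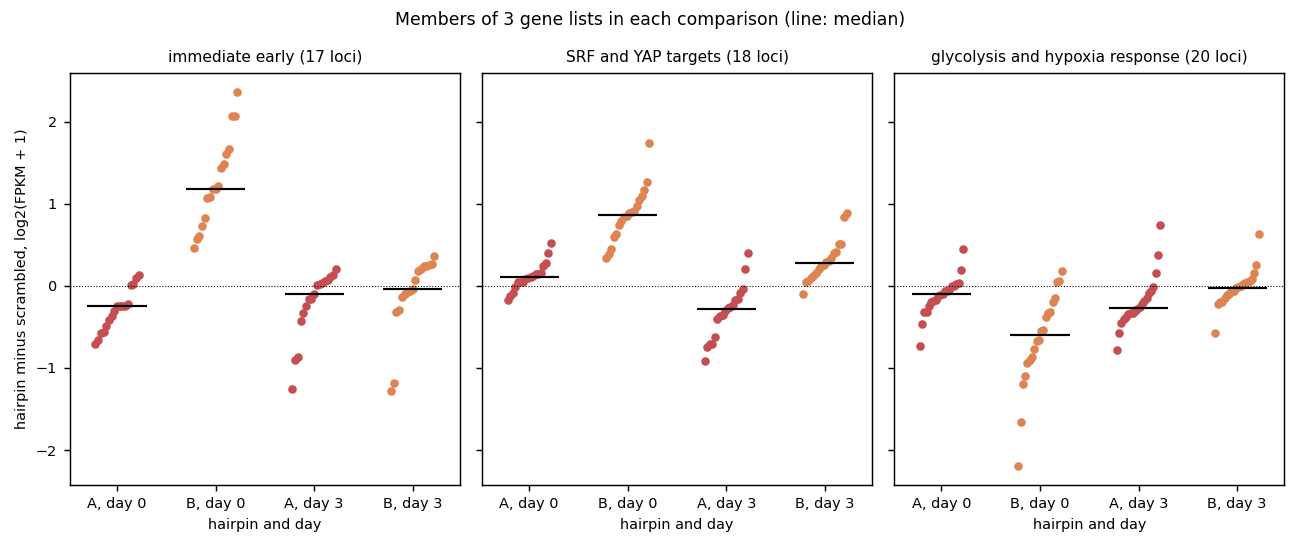
Each point is the difference of 1 member from the scrambled library of the same day, in log2(FPKM + 1), for immediate early genes (left), SRF and YAP targets (middle) and genes of glycolysis and low oxygen (right), with black lines at the medians. The departures are widest in hairpin B at day 0, with medians of 1.18, 0.87 and -0.60, and hairpin A at day 0 has medians of -0.25, 0.11 and -0.10.

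Many targets of p53, the damage-responsive tumour suppressor, were also higher in hairpin B at day 0, but not all. There 8 of 17 were past 1.5-fold higher (8.14% of all loci were), with a median of 0.53. In hairpin A 0 of 17 were, with a median of 0.04. At any size, 10 of the 17 exceeded scrambled cells in hairpin A and hairpin B alike that day (32.5% of all loci did). Another 4 fell under scrambled cells in the 2 hairpins (30.1%). Bbc3 (Puma), a trigger of apoptosis, had 28.4 and 60.7 FPKM in hairpins A and B and 23.1 FPKM in scrambled cells at day 0, and 48.2 and 40.6 FPKM in hairpins A and B and 46.5 FPKM in scrambled cells at day 3. Cdkn1a (p21), the cell cycle inhibitor, had 51.5 and 92.9 FPKM in hairpins A and B and 59.1 FPKM in scrambled cells at day 0, and 36.3 and 32.7 FPKM in hairpins A and B and 43.0 FPKM in scrambled cells at day 3. Trp53inp1, another member, ran the other way at day 0, with 113 and 107 FPKM in hairpins A and B and 141 FPKM in scrambled cells. At day 3 Trp53inp1 had 87.6 and 71.0 FPKM in hairpins A and B and 80.0 FPKM in scrambled cells. The median of the list at day 3 was 0.05 in hairpin A and -0.05 in hairpin B.

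Hairpin B at day 0 also lay towards the later day at many, but not all, genes that turn over during differentiation. In hairpin A cells 446 loci were past 2-fold higher at day 3 than at day 0 and 510 past 2-fold lower. Read in the other cultures, 346 of the 446 loci (77.6%) were higher in hairpin B than in scrambled cells at day 0, with a median log2 difference of 0.37, and 314 of the 510 were lower, with a median of -0.19. The median over all loci tested in hairpin B at day 0 was -0.004. At day 3, 231 of the 446 loci were higher in hairpin B than in scrambled cells (median 0.02). Of the 510, 337 were lower there (median -0.08), so the count of lower loci was not larger at day 0. With the loci chosen in hairpin B in the same way, 118 of 316 (37.3%) were higher in hairpin A than in scrambled cells at day 0, with a median of -0.06. No library stands on both sides of these readings, but the loci were picked by their values, so no test was made. Fgf8, a growth factor of the primitive streak, had 4.56 and 22.01 FPKM in hairpins A and B and 5.6 FPKM in scrambled cells at day 0, and 26.3 and 37.6 FPKM in hairpins A and B and 33.5 FPKM in scrambled cells at day 3. Sp5, a direct Wnt target, had 0.847 and 15.4 FPKM in hairpins A and B and 1.7 FPKM in scrambled cells at day 0, and 3.86 and 4.67 FPKM in hairpins A and B and 4.58 FPKM in scrambled cells at day 3. Several naive factors, chosen after their values were seen, did not share this order. Klf4, a zinc finger factor, had 152 and 279 FPKM in hairpins A and B and 125 FPKM in scrambled cells at day 0, and 6.36 and 4.28 FPKM in hairpins A and B and 5.93 FPKM in scrambled cells at day 3. Klf2 had 172 and 564 FPKM in hairpins A and B and 202 FPKM in scrambled cells at day 0, and 115 and 79.6 FPKM in hairpins A and B and 102 FPKM in scrambled cells at day 3. Klf5 had 38.2 and 132 FPKM in hairpins A and B and 49.5 FPKM in scrambled cells at day 0, and 22.8 and 28.4 FPKM in hairpins A and B and 26.7 FPKM in scrambled cells at day 3. Tcfcp2l1 and Nr0b1 were likewise lower at day 3 in all 3 cultures and higher in hairpin B than in scrambled cells at day 0, by log2 differences of 0.77 and 0.66. Of the 16 epiblast genes tested, 5 were past 1.5-fold higher in hairpin B at day 0 (8.14% of all loci were) and 3 lower (6.57%). Otx2 and Dnmt3b, which were higher at day 3 in all 3 cultures, were among those lower. Otx2 had 31.8 FPKM in hairpin B and 62.9 FPKM in scrambled cells at day 0.

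The last comparison concerned the genes that announce mesoderm at day 3. Among all loci, 2.0% were past 1.5-fold higher and 2.12% lower in hairpin A at day 3. T (brachyury), the founding factor of mesoderm, had 3.12 and 7.99 FPKM in hairpins A and B at day 3 and 7.09 FPKM in scrambled cells, and 0.435, 2.33 and 0.697 FPKM in that order at day 0. Eomes, a T-box factor of the streak, had 5.74 and 9.96 FPKM in hairpins A and B at day 3 and 10.4 FPKM in scrambled cells. Actc1, the cardiac actin, had 3.22 and 7.88 FPKM in hairpins A and B at day 3 and 8.85 FPKM in scrambled cells. For these 3 genes hairpin A stood alone below the other cultures at day 3. Of the 9 tested streak genes, 6 lay under scrambled in both hairpins at day 3 (27.5% of all loci did) and 0 did so in all 4 comparisons (10.1%). Their day 3 medians were -0.29 (A) and -0.08 (B), and 2 of the 9 were past 1.5-fold lower in hairpin A. The lower values were not particular to mesoderm genes. In the trophectoderm list, which holds Eomes and Krt19, 6 of 8 tested genes were past 1.5-fold lower in hairpin A at day 3, with day 3 medians of -0.745 (A) and 0.065 (B). Mixl1, a streak homeobox gene, had 1.041 and 0.86 FPKM in hairpins A and B and 1.2 FPKM in scrambled cells at day 3, near the limit of detection. Krt19, a simple epithelial keratin, had 9.95 and 30.6 FPKM in hairpins A and B and 29.0 FPKM in scrambled cells at day 3. Mest, an imprinted gene of mesoderm, ran the other way, with 7.75 and 2.26 FPKM in hairpins A and B and 1.56 FPKM in scrambled cells.

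The signals that precede the heart lineage differed unevenly between hairpins and days. Bmp4, the ligand that directs mesoderm, had 4.64 and 7.24 FPKM in hairpins A and B and 7.17 FPKM in scrambled cells at day 0, and 2.66 and 2.28 FPKM in hairpins A and B and 4.06 FPKM in scrambled cells at day 3. Id1, Id2 and Id3 are direct targets of BMP signalling. Id1 had 14.4 and 28.3 FPKM in hairpins A and B and 28.0 FPKM in scrambled cells at day 0, and 25.0 and 29.4 FPKM in hairpins A and B and 35.6 FPKM in scrambled cells at day 3. Id3 had 38.9 and 99.3 FPKM in hairpins A and B and 73.4 FPKM in scrambled cells at day 0, and 19.03 and 25.4 FPKM in hairpins A and B and 40.1 FPKM in scrambled cells at day 3. At day 3 Id1 and Id3 lay under scrambled cells in either hairpin. Id2 had 17.7 and 15.5 FPKM in hairpins A and B and 33.6 FPKM in scrambled cells at day 0, and 26.3 and 20.6 FPKM in hairpins A and B and 21.5 FPKM in scrambled cells at day 3. Of the 13 tested BMP targets, 2 were higher and 0 lower in all 4 comparisons, against 9.81% and 10.1% of all loci. At day 3, 3 were higher and 4 lower in both hairpins, against 26.9% and 27.5% of all loci. Nodal, the ligand that patterns the streak, differed little, with 42.1 and 49.8 FPKM in hairpins A and B and 42.5 FPKM in scrambled cells at day 0, and 67.7 and 69.0 FPKM in hairpins A and B and 69.5 FPKM in scrambled cells at day 3.

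Of the epiblast genes, Otx2 and Dnmt3b were lower in both hairpins on both days. Otx2, a homeobox factor of the primed epiblast, had 48.1 and 31.8 FPKM in hairpins A and B and 62.9 FPKM in scrambled cells at day 0, and 76.6 and 82.9 FPKM in hairpins A and B and 112 FPKM in scrambled cells at day 3. Dnmt3b, a de novo DNA methyltransferase, had 74.3 and 69.0 FPKM in hairpins A and B and 116 FPKM in scrambled cells at day 0, and 297 and 358 FPKM in hairpins A and B and 448 FPKM in scrambled cells at day 3. Of the 16 epiblast genes tested, 3 were lower and 2 higher in all 4 comparisons, against 10.1% and 9.81% of all loci.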

How the data were processed

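RNA-seq libraries of hairpin A, hairpin B and scrambled E14 cells at days 0 and 3 were read from the deposited time course table. Per the submitters' processing notes, the authors made its FPKM values on mm9, using Cufflinks 1.3.0 after TopHat 1.14 and Bowtie 0.12.7. The untreated E14 values are TPM, deposited by the authors and made with TopHat 1.3 and RSEM. The sources used here do not say if counting used the strand, so antisense and overlapping loci cannot be separated.

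Of 22102 entries, 642 under 300 bp were left out, and 12852 loci with at least 1 FPKM in 2 of the 6 libraries were tested on log2(FPKM + 1), so that folds of low loci are understated. Entries that share a name (595) were kept apart, and 25 names turned into dates were not named. limma 3.58.1 (mean trend, Benjamini-Hochberg, threshold 0.05) was fitted over both days with day as a covariate, and by day. The scripts were checked on simulated data. Depth came from single-read steps of olfactory receptor loci and covers counting error only.

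The 32 gene lists, the libraries compared and the tests were chosen with earlier results of these data known. Named loci were those past 1.5-fold in all 4 comparisons (at most 15 a direction), the 5 leading a day in each direction, and of each list the first 3 and the member with the largest effect. RNA interference genes and Suz12, Ezh2 and Eed were also named, and any other is marked, or stands for a list, as chosen after its values were seen. The locus called in the tests by day is counted and not reported here. Alternatives were the pseudocount, filter, locus length, scaling, trend, model, hairpin block and each library left out. Upstream sequences are from RefSeq (GRCm38.p6) and no coordinates were converted.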

Additional observations from a re-analysis of the deposited data

Results flagged for a closer look

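Among the named loci, 4 were past 1.5-fold in both hairpins in one direction at day 0 and in the opposite one at day 3, and limma's adjusted test of the difference passed for none of these 4. The named loci include those leading each day in each direction, and the share of all loci with such a reversal is not given here. The count of 4 therefore does not show how frequent reversals were. Each day's single scrambled library enters both hairpin comparisons. Moap1, which overlaps AK010878, had 2.09 and 2.03 FPKM in hairpins A and B and 8.36 FPKM in scrambled cells at day 0, and 16.9 and 16.04 FPKM in hairpins A and B and 6.73 FPKM in scrambled cells at day 3 (difference of effects 2.79, adjusted p = 0.235). 1110028C15Rik, which overlaps Rpe, gave -2.578 (adjusted p = 1.0). Syce1l, which overlaps Mon1b and had status FAIL in at least 1 library, gave 4.802 (adjusted p = 1.0), and there hairpin A at day 3, at 25.1 FPKM, stood apart from hairpin B at 2.89 FPKM. Fuz, which overlaps Ap2a1, gave -2.847 (adjusted p = 1.0). These 4 loci overlap another locus, and the part of that overlap was not tested.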

How the results depend on the processing

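Counts of called loci (0 over both days, 1 at day 0, 0 at day 3, 1 for the difference) rested on few loci. Over both days there was 1 call with a pseudocount of 0.1 FPKM, 4 with loci under 300 bp kept, 2 in the 4-group model, and 0 to 1 with a library left out (1 without scrambled of day 3). Day 0 had 0 calls without the filter, 8 with short loci, and 0 with all 12 libraries, with status OK only or without overlapping loci. Day 3 had 1 call with the smaller pseudocount, 8 with short loci, and 0 to 2 with a library left out (2 without hairpin B of day 3). The difference had 0 calls without the filter, with all 12 libraries, with status OK only or without overlapping loci, 3 with short loci, and 1 to 2 with a library left out (2 without hairpin B of day 3). With the hairpin culture as a replicate block it had 7, fitted as a fixed term; hairpin A minus hairpin B correlated at 0.359 between the days, and the block (consensus correlation 0.189) left the other 3 counts as they were. The 8 loci past 1.5-fold in all 4 comparisons became 37 and 2 with pseudocounts of 0.1 and 5 FPKM, 5 with the 5 FPKM filter, 17 with short loci, 4 without overlapping loci, and 13 to 22 with 1 comparison fewer (13 and 22 without hairpins A and B of day 0, 17 and 21 without those of day 3). The 19 loci past 2-fold in both hairpins at day 0 became 63, 5, 12, 53 and 7 under those first 5 settings, and the 18 at day 3 became 61 and 3 with the pseudocounts, 51 with short loci and 3 without overlapping loci. Of 448 list medians, 23 moved by more than the spread of the 4 comparisons. With hairpin A alone these were endothelial and blood (0.216), neuroectoderm (-0.113), amino acid stress (-0.167), cholesterol (-0.025) and proliferation (-0.059). With hairpin B alone they were epiblast (0.12), primitive endoderm (0.125), heat shock (-0.069), FGF and ERK (0.31), Nodal (0.205) and DNA methylation (-0.088). The 5 FPKM filter gave -0.405 for heart mesoderm and 0.183 for endothelial and blood, which status OK also gave, and imprinted genes without overlap gave 0.206. With a library left out, medians ranged from 0.02 to 0.191 for endothelial and blood, 0.008 to 0.115 for primitive endoderm, -0.018 to 0.156 for interferon, -0.155 to -0.044 for cholesterol, 0.012 to 0.212 for Nodal, -0.063 to -0.036 for DNA methylation and -0.098 to -0.048 for proliferation. The effects over both days of the 8 loci past 1.5-fold in all 4 comparisons kept their direction in all 132 refits, and Snhg9 passed the adjusted test in 2 of them (pseudocount of 0.1 FPKM and 4-group model). These 8 loci had been chosen for 1 direction in all 4 comparisons of the same libraries, so their direction could hardly change in a refit. Other named loci were not refitted singly. The causes were not tested. At these depths values under about 0.4 FPKM rest on few reads.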

Other observations

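Mt1, a metallothionein that binds zinc and copper, had 150 and 424 FPKM in hairpins A and B and 234 FPKM in scrambled cells at day 0, and 947 and 523 FPKM in hairpins A and B and 806 FPKM in scrambled cells at day 3. Top2a, the topoisomerase of dividing cells, had 311 and 197 FPKM in hairpins A and B and 394 FPKM in scrambled cells at day 0, and 204 and 198 FPKM in hairpins A and B and 222 FPKM in scrambled cells at day 3. Of the 20 proliferation genes, 9 were lower and 1 higher than scrambled in all 4 comparisons (10.1% and 9.81% of all loci were), with medians between -0.09 and -0.04. Cdkn1c (p57), an imprinted cell cycle inhibitor chosen after its values were seen, had 31.6 and 18.9 FPKM in hairpins A and B and 26.6 FPKM in scrambled cells at day 0, and 58.1 and 25.3 FPKM in hairpins A and B and 30.7 FPKM in scrambled cells at day 3.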
